A study of Mus musculus with 6 samples.

Results

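The mitochondrial carriers of the Slc25 family and the uncoupling proteins were described in 6 mouse samples hybridised to Affymetrix expression arrays. Members were the probe sets whose only gene symbol starts with Slc25a, together with those of the Ucp genes, and each gene was read from the 1 probe set whose average across all 6 arrays was highest. This gave 46 genes and 96 probe sets out of 18194 genes and 34958 probe sets with 1 gene symbol. Slc25a21, Slc25a43 and Ucp2 were not analysed here. A single array each came from MIN6 cells carrying an adenovirus for green fluorescent protein (AdGFP) and for miR-7b (AdmiR7b), and 2 arrays from MIN6 cells carrying one for miR-7a2 (AdmiR7a). MIN6 is a mouse insulinoma line that secretes insulin. All MIN6 cells were infected for 48 h at a multiplicity of 250, with glucose at 4.5 g/l and 2% serum in the medium, so the AdGFP control had also received virus. The other arrays held pancreatic islets of C57BL/6 mice, 1 from mice in which miR-7a2 had been deleted in beta cells with Lox/Cre (KO) and 1 from wild-type mice (WT). Age, sex, the Cre driver and the number of mice per islet sample are not given in the sources used here, and cells other than beta cells kept miR-7a2.

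Carriers of this family sit mostly in the inner mitochondrial membrane, which is otherwise closed to most solutes, and exchange nucleotides, phosphate, organic acids, amino acids, cofactors and iron between cytosol and matrix. In beta cells they pass the ADP, phosphate and reducing equivalents on which glucose-stimulated ATP production depends, and they export citrate and malate, which are discussed as signals coupling glucose metabolism to insulin release. Uncoupling proteins let protons or anions back across the membrane. The microRNA miR-7 is abundant in endocrine cells, and microRNAs lower the messengers they pair with through their seed.

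The mature forms of both vectors' microRNAs are shown because they share the seed, bases 2 to 8 in capitals, which is why the 3 miR-7 arrays were also treated as 1 group. They differ at 1 base, A10U (miR-7a first, counted from the 5′ end), and miR-7b is 24 bases long against 23. Sequences are those of RefSeq for GRCm38.p6, written 5′ to 3′.
mmu-miR-7a-5p: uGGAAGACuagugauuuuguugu
mmu-miR-7b-5p: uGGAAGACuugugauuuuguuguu
The level of mature miR-7 was not measured on these arrays.

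All values below are log2 probe set intensities as deposited, on a scale whose lowest value is 2.17. Intensities depend on the probe sequence, so levels were compared between arrays for one gene and not between genes. Between 28.3% and 29.7% of all probe sets sat at the lowest value on an array. Across genes, the AdGFP array differed from each miR-7 array by an SD of 0.511 to 0.578, and the miR-7 arrays from each other by 0.196 to 0.216. The beta-cell markers Ins2 and Iapp stood between 15.69 and 16.17 on all 6 arrays. The glucose transporter gene Slc2a2 was at most 3.84 on the MIN6 arrays against 14.49 in KO and 14.15 in WT islets.

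Of the 46 genes, 34 reached a value of 4 on at least 1 array and 31 exceeded 4 on all 6. The other 12 stayed below 4 everywhere. They were Slc25a2, Slc25a13, Slc25a18, Slc25a31, Slc25a34, Slc25a41, Slc25a42, Slc25a45, Slc25a48, Slc25a54, Ucp1 and Ucp3. Slc25a42, a coenzyme A carrier gene, came closest, with 3.97 in WT islets, 3.21 in KO islets and at most 2.89 in MIN6. The remaining 11 did not pass 2.43. Slc25a13, which encodes the aspartate/glutamate carrier citrin, was among them with its single probe set at 2.18 on all 4 MIN6 arrays and at 2.28 and 2.35 in KO and WT islets. Ucp1, the uncoupling protein of brown fat, had 1 probe set at 2.17 on every array. Ucp3 lay between 2.17 and 2.24, Slc25a18, a glutamate carrier gene, between 2.17 and 2.32, and the testis ADP/ATP carrier gene Slc25a31 between 2.17 and 2.43. A low value here says that the probe set gave no signal above the background of the array, not that the transcript was absent.

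**Figure D1:**
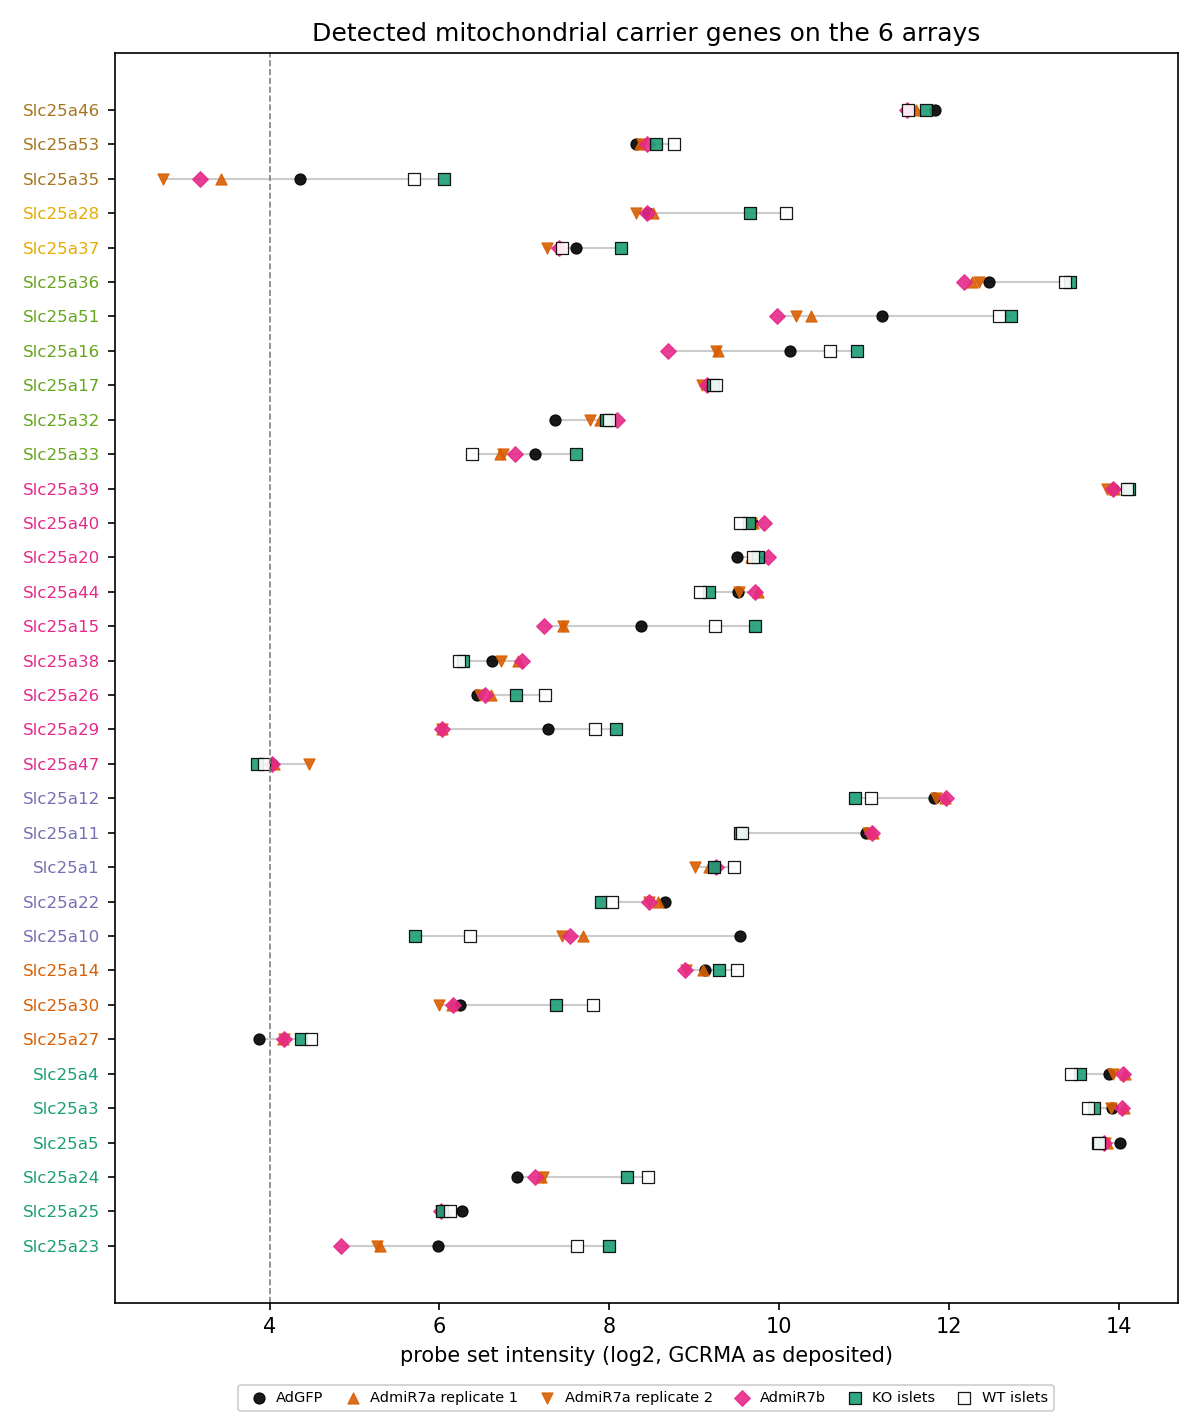
Deposited probe set intensity (log2, horizontal axis) of the 34 carrier genes that reached 4 on at least 1 array, 1 row per gene and 1 symbol per array; label colours mark the role classes, from adenine nucleotide and phosphate carriers at the bottom to carriers of unsettled role at the top, and the dashed line is the level of 4. Slc25a10 ran from 5.72 in KO islets to 9.54 with AdGFP, while Slc25a39 stayed between 13.86 and 14.12.

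With miR-7 in MIN6 cells, 4 of 33 tested carriers fell and 0 rose. The dicarboxylate carrier gene Slc25a10 fell 3.95-fold, the basic amino acid carrier gene Slc25a29 fell 2.37-fold, the mitochondrial NAD carrier gene Slc25a51 fell 2.04-fold and the ornithine carrier gene Slc25a15 fell 1.98-fold. These calls come from limma with the 3 miR-7 arrays against the 1 AdGFP array, over all 10367 genes with a MIN6 mean of at least 4, and a call means a two-sided p, adjusted by Benjamini and Hochberg, under 0.05. Among all genes tested 12.1% fell and 14% rose, against 12.1% and 0% of the carriers, so the share that fell was that of all genes. The median difference was -0.03 for the carriers and 0.06 for all genes. By limma at an unadjusted p under 0.05, 3 carriers were higher and 9 lower, together 12 of 33, against 4483 of the 10367 genes. With no filter, a filter at 6, averaged probe sets, a second quantile normalization or every probe set on its own, 1 carrier was called higher. In these settings 2 to 7 carriers were called lower, and 42.7% to 55.6% of all calls were higher. The carrier need not be the same. With every probe set on its own it was Slc25a53, by a probe set not used in the main fit. The fit takes the spread of the miR-7 arrays for that of the single AdGFP array, and the study states only that the miR-7a infection was done in duplicate, so the spread may be that of parallel dishes. Leaving out AdmiR7a replicate 1, AdmiR7a replicate 2 or AdmiR7b each took the number of called carriers, and of all called genes, to 0. Beta-cell markers moved in the same comparison: of 6 tested, 3 fell, Pdx1 (-0.99), Nkx6-1 (-0.76) and Slc30a8 (-0.73), with limma adjusted p from 0.0139 to 0.0194, and the summed level of all 7 went from 17.45 with AdGFP to between 17.30 and 17.39 with miR-7. The alpha-cell marker Gcg fell (-0.53) and the endothelial marker Plvap rose (0.85, from 3.50 to between 4.28 and 4.42), with limma adjusted p of 0.0426 and 0.0147, while the other 8 endothelial markers were below 4 on all MIN6 arrays. The part of these markers in the carrier differences was not tested.

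Slc25a10 encodes the carrier that exchanges malate and succinate for phosphate. It stood at 9.54 with AdGFP, 7.69 and 7.44 with AdmiR7a and 7.54 with AdmiR7b. All 3 miR-7 arrays were thus far below the control and within 0.25 of each other. Lying below AdGFP on all 3 is common: it held for 15 of 33 tested carriers (45.5%) and 33.2% of all genes. For 11 carriers (33.3%) and 46.2% of all genes, all 3 lay above it. The difference was -1.98 ± 0.12 (SE; limma adjusted p = 0.0108). Its second probe set was also lower, at 7.0 with AdGFP against 5.09, 5.72 and 5.37, a difference of -1.60 ± 0.28 when every probe set was tested on its own (limma adjusted p = 0.0386). Without any one of the miR-7 arrays the difference ranged from -2.05 to -1.93, with a limma adjusted p of 0.065 to 0.0784.

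Slc25a29 encodes a carrier of arginine and other basic amino acids. Its value was 7.28 with AdGFP and 6.03 on each of the 3 miR-7 arrays, a difference of -1.25 ± 0.07 (limma adjusted p = 0.0103). The miR-7 values lay within 0.005 of each other, as they did for 75 of the 10367 genes tested, so the SE rests on the spread of other genes. Whether 6.03 is a background reading of this probe set, and not a measured level, was not tested. All 5 probe sets of Slc25a29 were lower with miR-7, by differences from -1.25 to -0.79, although the mean of the other 4 in MIN6 lay below 4 and they were not tested. Slc25a15, whose product carries ornithine and citrulline, stood at 8.37 with AdGFP, 7.45 and 7.46 with AdmiR7a and 7.23 with AdmiR7b (-0.99 ± 0.13, limma adjusted p = 0.0184). Again no miR-7 array reached the control, as for 33.2% of all genes tested. The mean with its second probe set, which lay at 2.18 to 2.21 on the MIN6 arrays, differed by less (-0.50, limma adjusted p = 0.0207).

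Slc25a51, the gene for the NAD carrier of mammalian mitochondria, read 11.21 with AdGFP, 10.37 and 10.20 with AdmiR7a and 9.98 with AdmiR7b (-1.03 ± 0.18, limma adjusted p = 0.0282). Its 3 probe sets did not move alike. The other probe sets differed by -0.27 ± 0.10 and -0.11 ± 0.07 (limma adjusted p = 0.147 and 0.333 with every probe set tested on its own). The call for Slc25a51 therefore holds for its brightest probe set, and the mean of its probe sets differed by -0.47 (limma adjusted p = 0.0343).

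A pair of carriers with differences near those sizes did not pass the test. Slc25a16, linked to the coenzyme A supply of the matrix, was at 10.13 with AdGFP, 9.28 and 9.26 with AdmiR7a and 8.69 with AdmiR7b, which gave -1.05 ± 0.28 (limma adjusted p = 0.0629). The calcium-regulated ATP-Mg/phosphate carrier gene Slc25a23 was at 5.98, then 5.31, 5.26 and 4.85 (-0.84 ± 0.22, limma adjusted p = 0.0595). In both, AdmiR7b was the lowest array. Slc25a35, whose substrate is not settled, was at 4.36 with AdGFP and at 3.43, 2.74 and 3.18 with miR-7, below the level of 4 used as filter, and was not tested.

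The 27 other tested carriers lay between -0.34 and 0.56. The largest positive difference was that of the folate and flavin carrier gene Slc25a32, at 7.36 with AdGFP and 7.89, 7.77 and 8.09 with miR-7 (0.56 ± 0.15, limma adjusted p = 0.0632), and its other probe set above 4 differed by 0.05 ± 0.33. Slc25a27, a relative of the uncoupling proteins, came next to the threshold at 0.29 ± 0.07 (limma adjusted p = 0.0502), with AdGFP at 3.88 and the miR-7 arrays at 4.16 to 4.17. Slc25a53 differed between probe sets: the one used stood at 0.09 ± 0.08 (limma adjusted p = 0.462), whereas the second rose by 0.91 ± 0.11 when tested on its own (limma adjusted p = 0.0268). Of 13 carriers with several probe sets above 4, the differences of a gene's probe sets lay within 0.3 of each other for 6.

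**Figure D2:**
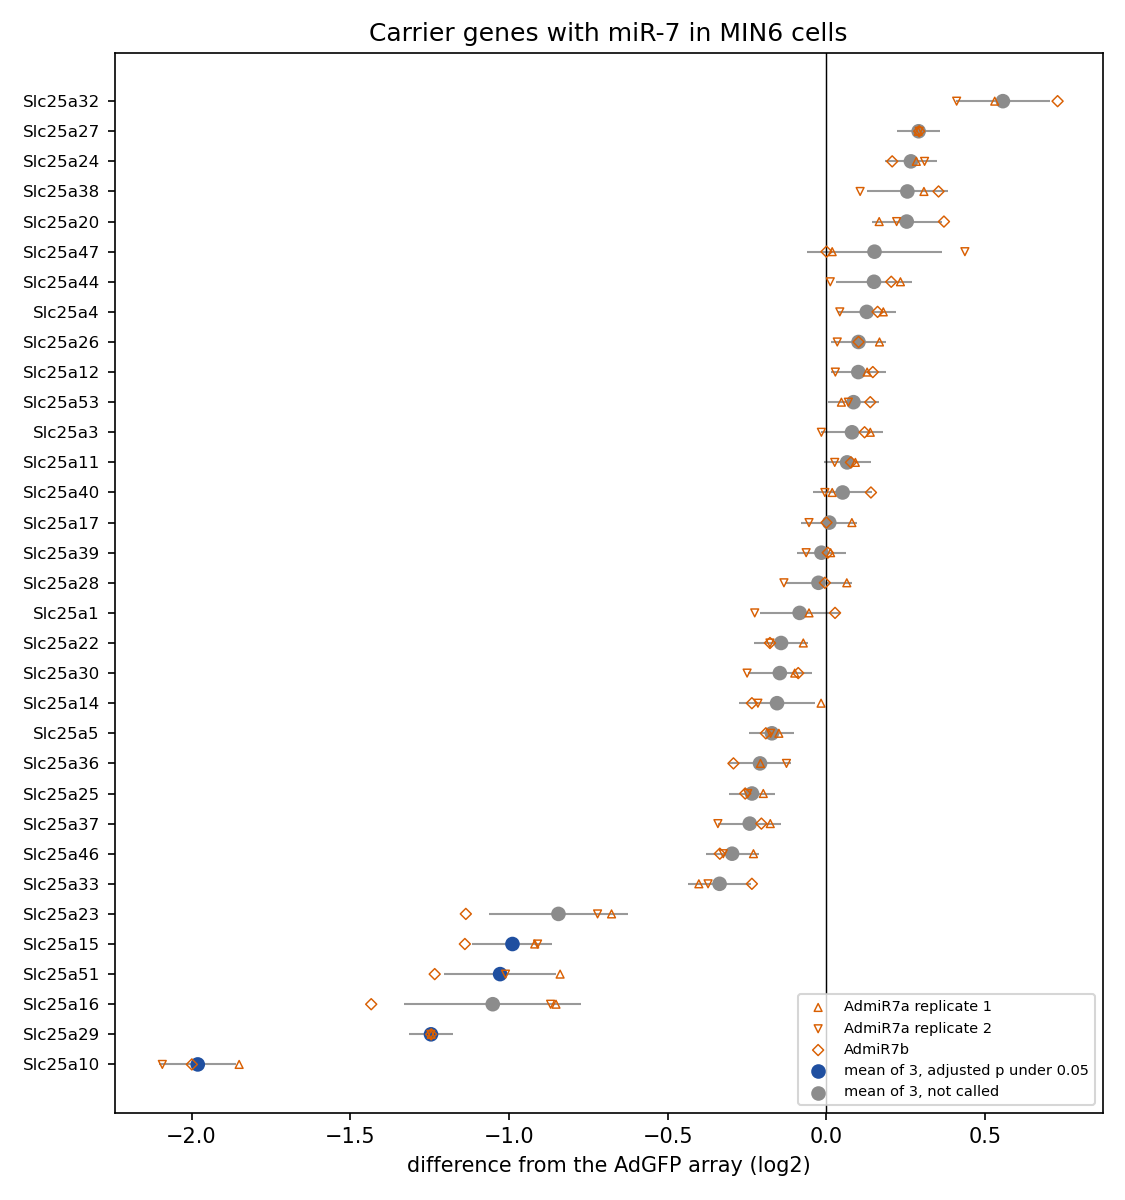
Difference from the AdGFP array (log2, horizontal axis) for the 33 carriers tested in MIN6 cells; filled circles are means of the 3 miR-7 arrays with their limma SE, blue where the adjusted p was under 0.05, and open symbols are the single arrays. Slc25a10, Slc25a29, Slc25a16, Slc25a51, Slc25a15 and Slc25a23 form the lower end, at -0.84 or below, and the next carrier, Slc25a33, is at -0.34.

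Carriers that serve ATP production directly showed small differences. The phosphate carrier gene Slc25a3 was at 13.92 with AdGFP and 14.06, 13.90 and 14.04 with miR-7 (0.08 ± 0.10, limma adjusted p = 0.569). The ADP/ATP carrier gene Slc25a4 was at 13.89 and then 14.07, 13.93 and 14.05 (0.13 ± 0.09, limma adjusted p = 0.355), and Slc25a5, the other detected ADP/ATP carrier gene, at 14.02 and then 13.87, 13.84 and 13.82 (-0.17 ± 0.07, limma adjusted p = 0.149). At such intensities a probe set may be close to saturation, and this was not tested. The 8 probe sets of Slc25a5 gave differences from -0.40 to 0.01. The lowest was -0.40 ± 0.315 (limma adjusted p = 0.418 with every probe set tested on its own). Slc25a39, a glutathione carrier gene, also differed little. It stood at 13.93 with AdGFP and 13.94, 13.86 and 13.93 with miR-7, and at 14.12 and 14.10 in KO and WT islets. The pyrimidine nucleotide carrier gene Slc25a36 was at 12.47 and then 12.27, 12.35 and 12.18 (-0.21 ± 0.10, limma adjusted p = 0.183). Among the 6 tested carriers of adenine nucleotides, phosphate and ATP-Mg, 0 were called.

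Of the 5 tested carriers of citrate, dicarboxylates, oxoglutarate, aspartate and glutamate, Slc25a10 alone was called. The oxoglutarate/malate carrier gene Slc25a11 and the aspartate/glutamate carrier gene Slc25a12, which form the malate-aspartate shuttle, differed by 0.06 ± 0.07 and 0.10 ± 0.09. The citrate carrier gene Slc25a1 was at 9.23 with AdGFP and 9.18, 9.01 and 9.26 with miR-7, a difference of -0.08 ± 0.13. The glutamate carrier gene Slc25a22 was at 8.65 and then 8.58, 8.47 and 8.47 (-0.14 ± 0.08). The miR-7 arrays lay below AdGFP for Slc25a22 and on both sides of it for Slc25a1. Limma adjusted p for these 4 genes lay between 0.272 and 0.646. Of 9 tested carriers of other amino acids, carnitine, glutathione and one-carbon units, Slc25a15 and Slc25a29 fell. Among 6 carriers of nucleotides, cofactors and vitamins Slc25a51 fell. No call was made among 3 relatives of the uncoupling proteins, 2 iron carriers and 2 carriers of unsettled role (0 by limma, with Slc25a27 and Slc25a46 at an unadjusted p under 0.05).

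The AdmiR7a arrays alone called 0 carriers and 0 genes against AdGFP by limma, with an adjusted p of at least 0.0666 for each carrier. Before adjustment 10 of 33 carriers were below 0.05 by limma, against 3809 of 10367 genes. A filter at 6 nevertheless called 5 carriers (16.7%, against 18.9% of all genes). Quantile normalization or centring called 6 each (18.2%, against 19.8% and 21.7%). In other settings the carriers' share was above that of all genes: 4 with averaged probe sets (12.5%, against 9.89%) and 1 with no filter (2.17%, against 1.78%). Against AdGFP, AdmiR7b had 6 of 33 carriers at least 1 lower (18.2%), against 4.36% of all genes, and 0 at least 1 higher, against 3.82%. At a size of 0.58 the same 6 carriers were lower, against 11.4% of all genes, and 1 was higher (3.03%), against 12%. The 6 were Slc25a10 (-2.0), Slc25a16 (-1.43), Slc25a29 (-1.25), Slc25a51 (-1.23), Slc25a15 (-1.14) and Slc25a23 (-1.14). These are single arrays with no replicate check, and the members were chosen with results known, so the share carries no p. Between the vectors limma called 0 carriers and 0 genes (AdmiR7b minus AdmiR7a). Before adjustment 2 of 33 carriers had a limma p under 0.05, Slc25a16 (-0.57) and Slc25a23 (-0.44), against 597 of 10367 genes. For 30 of 33 carriers the vectors differed by less than 0.3. Both vectors' differences share the AdGFP array.

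Islets lacking miR-7a2 in beta cells differed from wild-type islets by at least 0.58 in 3 of 33 carriers, 2 higher (6.06%, against 4.54% of all genes) and 1 lower (3.03%, against 4.56%). Slc25a33, a carrier of pyrimidine nucleotides, was at 7.61 in KO and 6.38 in WT islets and so 2.34-fold higher in KO. Slc25a37, the gene of the iron importer mitoferrin 1, was at 8.13 and 7.45, or 1.61-fold higher. Slc25a10 was at 5.72 and 6.36, or 1.56-fold lower. Both probe sets of Slc25a10 were lower in KO, by 0.64 and 0.40 on the log2 scale (KO minus WT -0.64 and -0.40), and their mean differed by -0.52, under the size of 0.58. At a size of 1, Slc25a33 was the single carrier, against 1.61% of all genes higher and 1.23% lower.

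With 1 array per genotype no carrier could be tested in islets, and 23 of 33 differed by less than 0.3. The median was 0.03 for the carriers and -0.02 for all genes. Among the other carriers, differences ran from -0.44 for Slc25a30 to 0.47 for Slc25a15. The second mitoferrin gene, Slc25a28, was lower in KO (9.66 against 10.08, KO minus WT -0.42), opposite to Slc25a37. Phosphate and ADP/ATP carriers differed by at most 0.10, with KO and WT at 13.70 and 13.64 for Slc25a3, 13.54 and 13.44 for Slc25a4 and 13.75 and 13.76 for Slc25a5. Endothelial markers were lower in KO as a summed level (12.73 against 13.27, log2 of the summed intensity of 9 genes), a sum led by Esm1 at 11.83 against 12.61. Of 8 such markers above 4 in islets, Pecam1 (-1.11) and Esm1 (-0.78) were past 0.58, and the other 6 lay between -0.43 and 0.14. Acinar markers were below 4 in both islet samples for 6 of 6 genes found. Whether the number of endothelial cells moved any carrier was not tested, and fewer cells of a type cannot be told apart from less RNA per cell.

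The carriers that were low with miR-7 in MIN6 cells were mostly higher in KO islets, by small amounts. Of 6 carriers at least 0.58 lower with miR-7, 5 were higher in KO, namely Slc25a15 (0.47), Slc25a23 (0.38), Slc25a16 (0.32), Slc25a29 (0.25) and Slc25a51 (0.14), while Slc25a10 was lower (-0.64). For Slc25a29 the direction differed between probe sets, since its second brightest read 6.75 in KO and 7.42 in WT islets. Among all 930 genes that were at least 0.58 lower with miR-7 and measured in both systems, 69.5% were higher in KO, against 46.0% of all 9765 genes, so this direction was that of most such genes. Slc25a35 was also higher in KO, at 6.05 against 5.71. Slc25a10 thus differed in direction from the other 5, being lower both with added miR-7 and without miR-7a2. These systems share no array.

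**Figure D3:**
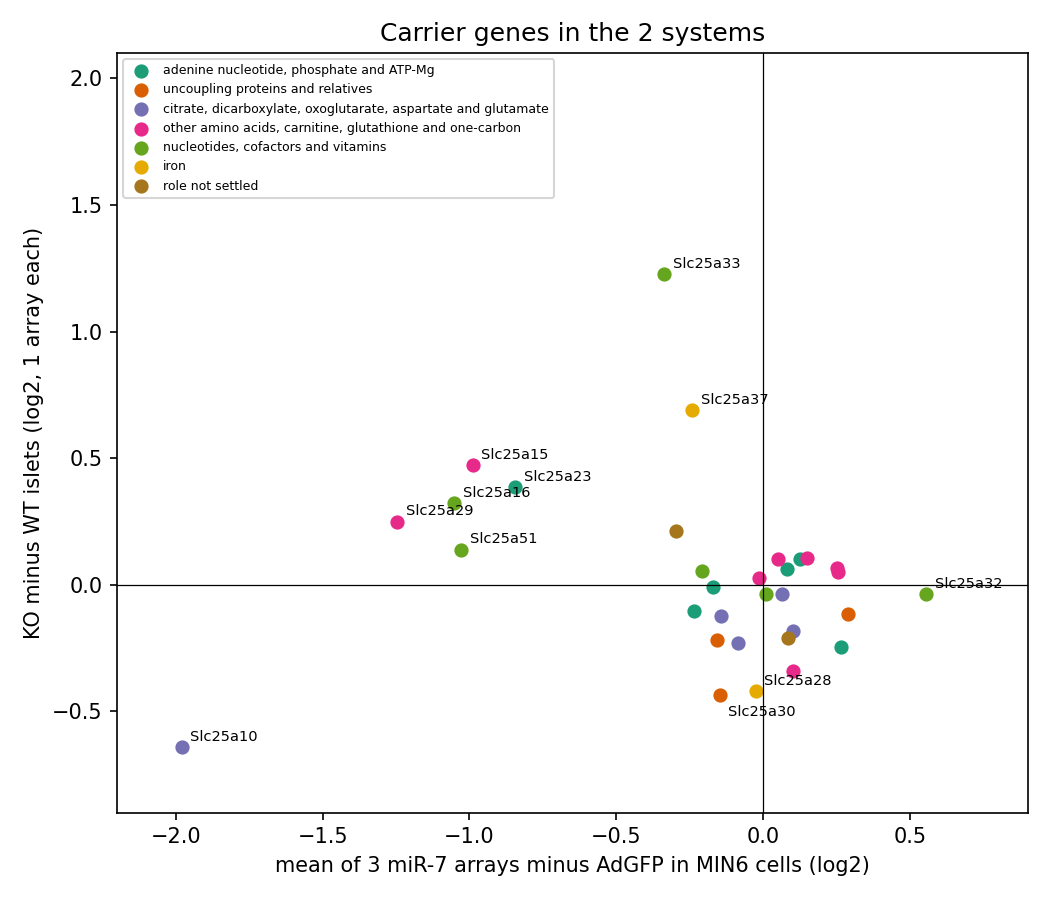
Each point is 1 of the 32 carriers measured in both systems, with the mean of the 3 miR-7 arrays minus AdGFP in MIN6 cells (log2, horizontal axis) against KO minus WT islets (log2, vertical axis, 1 array each), coloured by role. Slc25a10 is alone at the lower left, at -1.98 and -0.64, and Slc25a33 is highest, at 1.23.

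MIN6 cells and islets differed in many carriers. In limma with the 4 MIN6 arrays against the 2 islet arrays, 8 of 34 carriers were higher in MIN6 (23.5%, against 34.2% of 11155 genes tested). Another 14 were lower (41.2%, against 34.6%). The spread in this fit holds the differences between vectors and between genotypes, so its SE and p do not measure the spread of repeated samples. Higher in MIN6 were 4 of the 5 carriers of citrate, dicarboxylates, oxoglutarate, aspartate and glutamate. Slc25a11 was at 11.02 to 11.11 in MIN6 and at 9.53 and 9.57 in KO and WT islets, 2.86-fold higher (1.51 ± 0.08, limma adjusted p = 1.42e-05). Slc25a12 was at 11.82 to 11.97 against 10.90 and 11.08, 1.87-fold higher (0.91 ± 0.10, limma adjusted p = 0.000353). Neither gene's groups overlapped, but with all probe sets of a gene averaged Slc25a12 turned to -0.16. Its probe sets not used lay at 2.55 to 4.17. Slc25a22, at 7.91 and 8.03 in KO and WT islets, was 0.57 ± 0.10 higher (limma adjusted p = 0.00245), and Slc25a10 was 2.01 ± 0.63 higher (limma adjusted p = 0.0292) with all 4 MIN6 arrays above both islet arrays. The ADP/ATP carrier gene Slc25a4 (0.49 ± 0.10) and the branched-chain amino acid carrier gene Slc25a44 (0.51 ± 0.11) were also higher. So were the glycine carrier gene Slc25a38 (0.55 ± 0.13, at 6.62 to 6.97 in MIN6 against 6.28 and 6.23) and the phosphate carrier gene Slc25a3 (0.31 ± 0.09). Limma adjusted p for these 4 genes lay between 0.00453 and 0.024. Slc25a3 turned to -0.19 with averaged probe sets, its other probe set lying at 2.28 to 3.36.

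Lower in MIN6 than in islets were 3 of 3 relatives of the uncoupling proteins, 3 of 6 carriers of nucleotides and cofactors, 3 of 9 of other amino acids and related solutes, 2 of 6 of adenine nucleotides, phosphate and ATP-Mg, 1 of 2 of iron and 2 of 3 of unsettled role. Slc25a23 was at 4.85 to 5.98 in MIN6 against 8.0 and 7.62 in KO and WT islets, 5.50-fold lower (-2.46 ± 0.31, limma adjusted p = 0.000669). Slc25a35 was at 2.74 to 4.36 against 6.05 and 5.71 (-2.45 ± 0.43, limma adjusted p = 0.00285). Slc25a51 was at 9.98 to 11.21 against 12.73 and 12.59, 4.65-fold lower (-2.22 ± 0.34, limma adjusted p = 0.00153). All 3 were lower in every MIN6 array than in either islet array. In KO and WT islets Slc25a15 stood at 9.72 and 9.24 and Slc25a29 at 8.08 and 7.83. These were again above every MIN6 array, for Slc25a15 (-1.85 ± 0.34) and Slc25a29 (-1.61 ± 0.39). The same held for the uncoupling protein relative Slc25a30 (-1.46 ± 0.15, at 6.0 to 6.25 in MIN6 against 7.38 and 7.81), Slc25a28 (-1.44 ± 0.14), Slc25a16 (-1.42 ± 0.38), the ATP-Mg/phosphate carrier gene Slc25a24 (-1.22 ± 0.13) and the pyrimidine nucleotide carrier gene Slc25a36 (-1.08 ± 0.11), with limma adjusted p between 0.000205 and 0.0158. Smaller negative differences were called for Slc25a26, Slc25a14, Slc25a27 and Slc25a53, from -0.56 to -0.28, of which Slc25a53 turned to 0.15 with averaged probe sets. Averaging also took Slc25a15 to -0.94, Slc25a24 to -0.61, Slc25a30 to -0.46, Slc25a4 to 0.24, Slc25a44 to 0.23 and Slc25a29 to -2.48, all still called, and Slc25a26 to -0.27 (limma adjusted p = 0.0605). These averages include probe sets near the lowest value. The only other probe set lay at 2.18 to 2.25 for Slc25a15, 2.60 to 2.62 for Slc25a24 and 2.27 to 2.67 for Slc25a26. For Slc25a4, Slc25a30 and Slc25a44 the average included probe sets at 2.17 on every array, beside others above 4.

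Of these 22 calls, 13 were made again whichever single array was left out (5 higher and 8 lower in MIN6), and 9 were not. Without KO islets the adjusted p by limma was 0.205 for Slc25a10, 0.052 for Slc25a15, 0.134 for Slc25a16, 0.104 for Slc25a29 and 0.0886 for Slc25a27. Without WT islets it was 0.107 for Slc25a10, 0.0803 for Slc25a16, 0.072 for Slc25a29, 0.0578 for Slc25a38, 0.0631 for Slc25a3, 0.136 for Slc25a14, 0.182 for Slc25a27 and 0.117 for Slc25a53. Dropping AdGFP gave 0.0509 for Slc25a53. Dropping AdmiR7a replicate 1, AdmiR7a replicate 2 or AdmiR7b gave 0.105, 0.0949 and 0.0643 for Slc25a53 and 0.0764, 0.074 and 0.07 for Slc25a27. Slc25a14 missed the threshold without AdmiR7a replicate 2 (0.0698) or AdmiR7b (0.0644), and Slc25a3 without AdmiR7a replicate 1 (0.0697) or AdmiR7b (0.0622).

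The miR-7 arrays are 3 of the 4 MIN6 arrays, so carriers that fell with miR-7 enter this comparison at a lower MIN6 level. Between the controls alone, AdGFP minus WT islets was 3.18 for Slc25a10, -0.55 for Slc25a29, -0.47 for Slc25a16, -0.87 for Slc25a15, -1.38 for Slc25a51 and -1.64 for Slc25a23, against 1.45 for Slc25a11 and 0.74 for Slc25a12. Virus, culture and cell composition cannot be told apart from the system here. Of 9 endothelial markers, 8 were below 4 on all MIN6 arrays and 1 was below 4 in both islet samples. Their summed level was 5.65 to 5.94 in MIN6 against 12.73 and 13.27 in KO and WT islets. Immune markers, 9 of 9 below 4 in MIN6 and 2 of 9 in islets, summed to at most 5.42 in MIN6 and to 12.14 and 12.09 in islets. Markers of delta, PP and epsilon cells summed to 9.5 to 9.79 in MIN6 and to 16.98 in islets. Their part in the carrier differences was not tested.

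**Figure D4:**
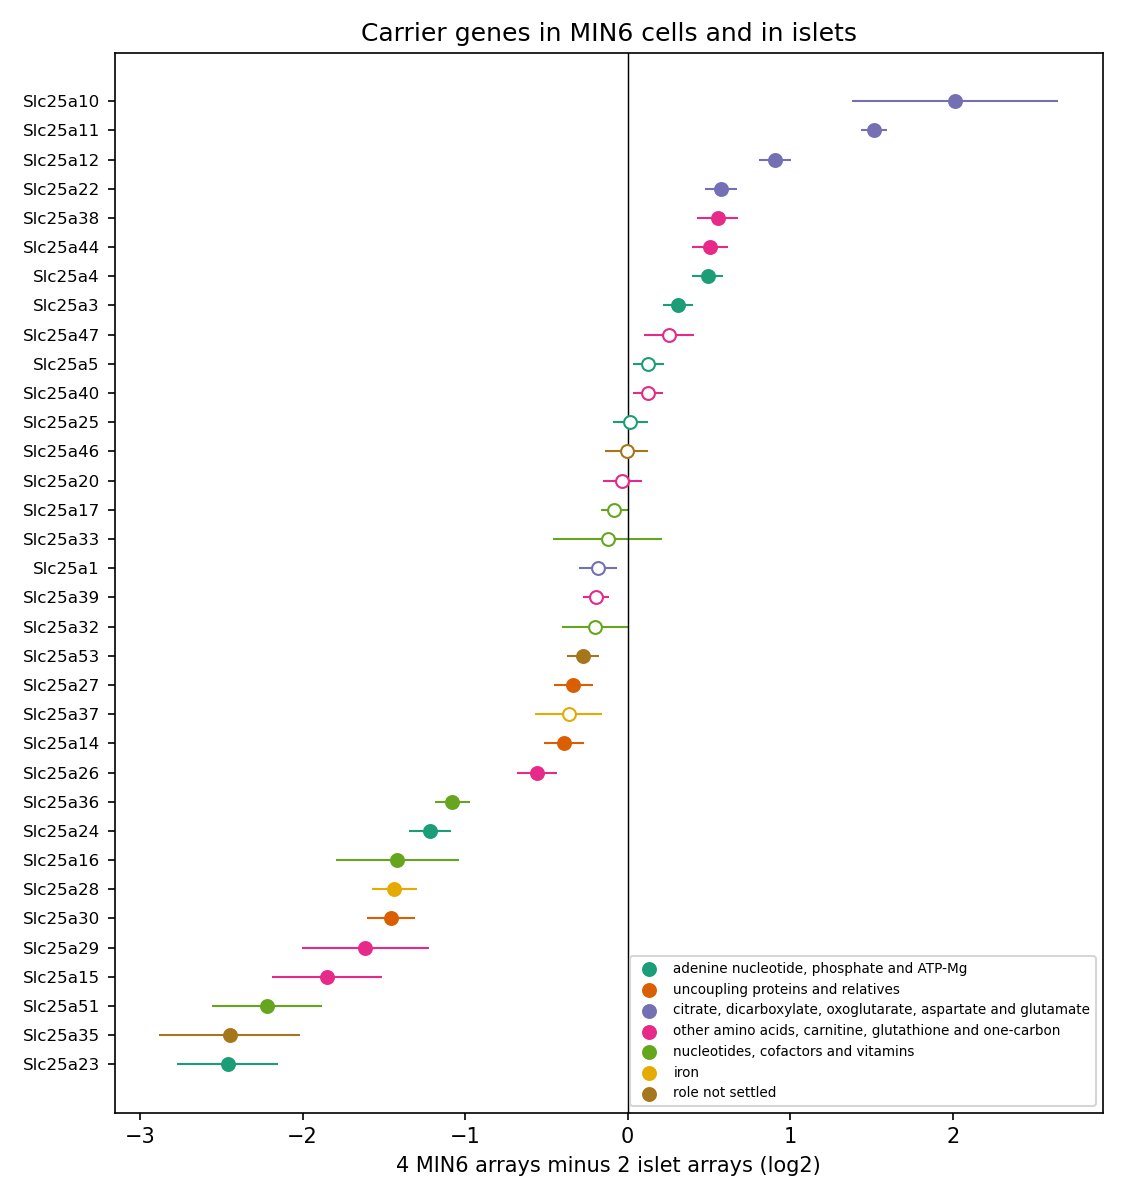
Difference between the 4 MIN6 arrays and the 2 islet arrays (log2, horizontal axis) with its limma SE for the 34 carriers above 4 in either system, coloured by role; filled circles had an adjusted p under 0.05 and open circles did not. The highest 4 genes, Slc25a10, Slc25a11, Slc25a12 and Slc25a22, carry dicarboxylates, oxoglutarate, aspartate or glutamate, and Slc25a23 is lowest at -2.46.

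Genes that work with the carriers were counted in 8 lists drawn up from their known roles. Of 103 members tested in MIN6, 15 rose (14.6%) and 9 fell (8.74%) with miR-7, against 14% and 12.1% of all genes. Of the 7 malate-aspartate and glycerol phosphate shuttle enzymes, 0 rose and 1 fell, Gpd2, the mitochondrial glycerol phosphate dehydrogenase gene. It stood at 11.14 with AdGFP and 10.01, 9.96 and 9.93 with miR-7 (-1.17 ± 0.08, limma adjusted p = 0.0108), and at 11.93 in KO against 11.07 in WT islets, 0.86 higher. Its miR-7 arrays all lay below the control, as for 33.2% of all genes tested. Of 21 enzymes of citrate, malate, oxoglutarate and glutamate, 3 rose and 1 fell, the citrate synthase gene Cs (-0.63, limma adjusted p = 0.0166).

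Other transporters of the mitochondrial membranes included 4 that rose and 2 that fell of 15 tested, where 14% of all genes rose and 12.1% fell. Vdac1, the main pore of the outer membrane, was at 12.23 with AdGFP and 11.18, 11.23 and 10.97 with miR-7 (-1.10, limma adjusted p = 0.0174), and was 0.41 higher in KO islets. The sideroflexin gene Sfxn4 rose by 0.88, the haem-related transporter gene Abcb10 by 0.63 and the calcium uniporter regulator gene Micu2 by 0.62 (limma adjusted p = 0.0239, 0.0212 and 0.0186). Mtch1 and Mtch2, outer membrane members of the carrier family by sequence and named for that after their values were seen, moved apart: Mtch1 fell by 0.39 and Mtch2 rose by 0.41 (limma adjusted p = 0.0303 and 0.0281). Of 13 genes that import carrier proteins 2 fell, Tomm22 (-0.81) and Agk (-0.53), with limma adjusted p of 0.0137 and 0.0188. Agk read 6.095 on every miR-7 array and in WT islets, and whether this is a background reading was not tested.

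Among 12 regulators of mitochondrial biogenesis 5 rose and 1 fell (median of the list 0.18, against 0.06 for all genes). Of all genes tested 14% rose and 12.1% fell. The mitochondrial helicase gene Twnk rose by 1.01 and the mitochondrial rRNA methyltransferase gene Tfb1m by 0.78 (limma adjusted p = 0.0207 and 0.0245), and the coactivator gene Pprc1 fell by 0.52 (limma adjusted p = 0.0238). Of 15 ATP synthase subunits 0 rose and 1 fell, Atp5o (-0.45, limma adjusted p = 0.0293). Of 10 genes of iron-sulphur and haem synthesis 0 were called by limma (none rose and none fell). Of 10 genes of carnitine and fatty acid oxidation 3 rose and 1 fell; the fatty acid oxidation gene Hadha rose by 0.68 and Hadh, whose loss causes excess insulin secretion, fell by 0.58 (limma adjusted p = 0.0381 and 0.0195). All these calls went to 0 when any miR-7 array was left out, as did those of every other gene. In islets 2 of 102 list members were at least 0.58 higher in KO (1.96%, against 4.54% of all genes), Gpd2 and the carnitine acetyltransferase gene Crat (1.17 higher), and 1 was lower (0.98%, against 4.56%), Hadha (KO minus WT -0.59).

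Promoter windows of 3 carriers are printed because these genes gave the largest differences: Slc25a10 and Slc25a29 with miR-7, and Slc25a33 between islets. Each runs from 250 bases before to 50 after the RefSeq start (GRCm38.p6), 5′ to 3′ on the gene's strand, in lower case with motif matches in capitals. The motifs searched on both strands were TGACGTCA (cAMP response element), CACGTG (E-box), CCAAT, whose reverse complement is ATTGG, and the NRF1 consensus palindrome. The first and second share the letters ACGT, and neither contains the other.
Slc25a10, chr11:120491587-120491886, plus strand: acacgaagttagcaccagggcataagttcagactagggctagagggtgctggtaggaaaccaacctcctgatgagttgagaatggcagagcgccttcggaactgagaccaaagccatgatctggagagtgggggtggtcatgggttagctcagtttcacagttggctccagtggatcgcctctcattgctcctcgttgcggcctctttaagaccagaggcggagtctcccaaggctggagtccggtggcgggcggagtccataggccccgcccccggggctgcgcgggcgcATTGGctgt
Slc25a29, chr12:108835827-108836126, minus strand: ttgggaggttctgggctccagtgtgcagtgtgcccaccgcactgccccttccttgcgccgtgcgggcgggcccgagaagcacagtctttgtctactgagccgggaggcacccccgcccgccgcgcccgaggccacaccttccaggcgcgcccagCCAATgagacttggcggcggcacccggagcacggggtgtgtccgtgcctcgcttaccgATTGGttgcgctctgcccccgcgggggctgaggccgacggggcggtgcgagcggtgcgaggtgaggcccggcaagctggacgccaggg
Slc25a33, chr4:149774218-149774517, minus strand: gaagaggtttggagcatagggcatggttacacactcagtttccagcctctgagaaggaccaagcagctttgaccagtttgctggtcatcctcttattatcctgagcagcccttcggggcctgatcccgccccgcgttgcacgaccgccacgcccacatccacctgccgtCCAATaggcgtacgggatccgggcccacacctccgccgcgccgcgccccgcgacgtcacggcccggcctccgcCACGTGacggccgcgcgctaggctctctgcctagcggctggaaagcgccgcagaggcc

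The windows of Slc25a10 and Slc25a29 held 1 and 2 CCAAT matches, and that of Slc25a33 held 1 CCAAT match and 1 E-box. Windows were 59.7% G and C for Slc25a10, 72.3% for Slc25a29 and 66.0% for Slc25a33. Over 45 windows of 36 carrier genes, CCAAT was found in 46.7%, against 37.4% of all 32851 windows, the E-box in 17.8% against 7.15%, the cAMP response element in 4.44% against 1.79% and the NRF1 motif in 0 against 0.971%. Carriers with an E-box were Slc25a1, Slc25a13, Slc25a14, Slc25a15, Slc25a31, Slc25a33 and Slc25a36, of which Slc25a15 was called with miR-7. A match describes the letters in a window and no binding was measured.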

How the data were processed

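Values are log2 intensities per probe set, as deposited by the authors; GCRMA and affy are named, without versions, per the submitters' processing notes. Whether other arrays were normalized with these 6, and the genome build, are not given in the sources used here. Of 45101 probe sets, 34958 had 1 symbol in the platform's gene table, 9211 had none and 932 had more than 1, and 34754 matched a RefSeq gene by Entrez identifier. Genes with a mean below 4 in the system compared were left out, leaving 10367 in MIN6, 10553 in islets and 11155 in either.

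Tests were lmFit and eBayes of limma 3.58.1 (R 4.3.3), with Benjamini-Hochberg adjustment over all genes tested. The residual degrees of freedom were 2 for the pooled miR-7 comparison, 1 for the fit with a mean per vector and 4 for MIN6 against islets. Comparisons of single arrays were counted at a log2 size of 0.58 or 1. The number of arrays limits the precision. Carriers, lists and the rule for named genes were chosen with earlier results of these data known. Named genes were the carriers called in the pooled fit, past 0.58 in islets, the 5 highest in each system and the 5 largest differences each way between systems, the Ucp genes and the main metabolite carriers, and up to 4 of the largest called genes of each partner list. Promoter windows were found for all but 10 of the 46 genes. Groups came from the sample titles.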

Additional observations from a re-analysis of the deposited data

How the results depend on the processing

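Pooled miR-7 calls among carriers numbered 4 (12.1%, against 26.2% of all genes). They numbered 3 to 6 with no filter, a filter at 6, another choice or the mean of probe sets, centring or an intensity trend. Every probe set on its own, chosen after seeing the data, gave 5 (15.2%, against 18.7% of all probe sets). A second quantile normalization gave 8 (24.2%, against 29.0% of all genes). Only with no filter was the carriers' share above that of all genes (6.52% against 5.18%). Leaving out a miR-7 array gave 0 to 0. With no filter, adjusted p by limma was 0.099 for Slc25a15 and 0.152 for Slc25a51, and 943 genes in place of 2713 were called in all. For AdmiR7a against AdGFP the 0 calls became 1 with no filter, 5 with a filter at 6, 4 with averaged probe sets, 6 with quantile normalization and 6 with centring, while all genes called went from 0 to 323, 1744, 967, 2051 and 2254. The 7 carriers past 0.58 with AdmiR7b (21.2%, against 23.4% of all genes) were counted by size alone. A limma contrast that borrows the AdmiR7a spread made no call for any gene, so it says nothing about carriers in particular. Averaging probe sets took the fall with miR-7 to -0.50 for Slc25a15 and -0.47 for Slc25a51, and took Slc25a10 in KO islets to -0.52. It reversed MIN6 minus islets for Slc25a12 (-0.16), Slc25a3 (-0.19) and Slc25a53 (0.15). The average weighs all probe sets alike. Those not used lay at 2.55 to 4.17 for Slc25a12, 2.28 to 3.36 for Slc25a3 and 6.23 to 7.39 for Slc25a53. The second probe set of Slc25a10 lay at 2.54 in KO and 2.95 in WT islets. Why probe sets of a gene differ was not tested. The calls for MIN6 against islets numbered 17 to 21 with 1 array left out, and 19 to 23 otherwise; choosing probe sets by the system compared is the same there and was not run. With all arrays, 57.6% to 67.6% of carriers were called between MIN6 and islets, against 68.4% to 70.3% of all genes. With no filter it was 41.3%, against 39.6%. With a MIN6 array left out it was 52.9% to 61.8%, against 62.0% to 76.5%. No paired analysis was possible because replicate numbers are given for AdmiR7a alone. Precision is limited by the lone AdGFP, AdmiR7b, KO and WT arrays and, below 4, by the background. Whether values above 4 that repeat between arrays, such as those of Slc25a29 and Agk, are also background was not tested.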
